A study of Mus musculus with 6 samples.

Results

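The genes examined are 10 immediate early response genes, chosen by name: Fos, Fosb, Jun, Junb, Egr1, Egr2, Nr4a1, Nr4a2, Ier2 and Ier3. Each had 1 probe set (the group of array probes that reads 1 transcript) with a single gene symbol, so all 10 were measured, among 19938 genes in all. They were read on 6 GeneChip Mouse Gene 1.0 ST arrays of the mouse embryonic stem cell line V6.5, carrying a short hairpin RNA that doxycycline (dox) switches on. The groups were Pcgf6-hairpin cells with dox at 1 µg/ml (n = 2, 1 array each of shRNA1 and shRNA2, called hairpin 1 and hairpin 2), Pcgf6-hairpin cells without dox (n = 2), Scrambled-hairpin cells with dox (n = 1) and Scrambled-hairpin cells without dox (n = 1). Every group was grown in serum with LIF-conditioned medium on inactivated DR4 mouse embryo fibroblasts, so RNA of these feeder cells can be in every sample. The promoter behind the hairpins, the clonality of the lines, and the time in dox or since the last change of medium are not given in the sources used here.

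Immediate early genes are switched on within minutes of a stimulus, such as serum, a growth factor or mechanical stress, by transcription factors that are already present in the cell, and their transcripts decay fast. Fos and Jun family proteins pair to form the transcription factor AP-1, Egr proteins are zinc finger transcription factors, and Nr4a proteins are orphan nuclear receptors. In embryonic stem cells the FGF and ERK pathway feeds these genes, and fibroblasts use the same genes in their serum response.

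All values are log2 expression after RMA, and levels are compared between arrays of a gene, not between genes. Pcgf6, the target of the hairpins, measured 9.39 and 9.27 with dox under hairpins 1 and 2, against 11.56 and 11.70 without dox, and 11.82 with dox against 11.80 without in the scrambled line. Correlations between arrays over all probe sets lay between 0.991 and 0.996. All 12 pluripotency markers lay above the median gene of their array on all 6 arrays, and so did 16 of 19 feeder fibroblast markers, the others being Col5a2, Lum and Fap. The mean of the feeder list was 10.21 with dox and 10.21 without in the hairpin 1 line, 10.50 with and 10.09 without in the hairpin 2 line, and 9.91 with and 9.38 without in the scrambled line. The means of the pluripotency list ran from 11.71 to 11.93. In bulk RNA, fewer cells of a type and less RNA per cell cannot be told apart.

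Upstream sequences are shown for 5 genes with different patterns below, Fos and Fosb of AP-1, Egr2, and the receptors Nr4a1 and Nr4a2. Each is the 250 bases before a RefSeq start in GRCm38.p6, written 5′ to 3′ on the strand of the gene, and 8 of the 10 genes had at least 1 such window, over 12 windows. Capitals mark CRE cores (TGACG on either strand, part of the site bound by CREB) and CArG boxes (the site bound by SRF).
Fos, chr12:85473640-85473889, + strand: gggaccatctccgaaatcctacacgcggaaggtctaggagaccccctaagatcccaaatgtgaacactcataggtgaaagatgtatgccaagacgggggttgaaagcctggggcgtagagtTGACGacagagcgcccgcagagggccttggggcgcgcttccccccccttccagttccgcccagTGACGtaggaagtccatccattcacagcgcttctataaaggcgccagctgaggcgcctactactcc
Fosb, chr7:19310046-19310295, - strand: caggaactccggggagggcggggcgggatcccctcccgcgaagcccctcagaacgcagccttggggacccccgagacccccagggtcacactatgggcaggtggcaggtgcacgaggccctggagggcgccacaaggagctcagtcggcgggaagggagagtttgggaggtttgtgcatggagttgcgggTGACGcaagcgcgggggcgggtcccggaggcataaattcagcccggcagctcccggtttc
Egr2, chr10:67537619-67537868, + strand: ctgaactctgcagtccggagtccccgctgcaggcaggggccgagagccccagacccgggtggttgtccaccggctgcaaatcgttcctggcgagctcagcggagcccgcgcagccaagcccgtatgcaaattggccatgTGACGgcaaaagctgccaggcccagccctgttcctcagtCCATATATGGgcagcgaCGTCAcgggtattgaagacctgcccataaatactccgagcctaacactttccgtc
Nr4a1, chr15:101266596-101266845, + strand: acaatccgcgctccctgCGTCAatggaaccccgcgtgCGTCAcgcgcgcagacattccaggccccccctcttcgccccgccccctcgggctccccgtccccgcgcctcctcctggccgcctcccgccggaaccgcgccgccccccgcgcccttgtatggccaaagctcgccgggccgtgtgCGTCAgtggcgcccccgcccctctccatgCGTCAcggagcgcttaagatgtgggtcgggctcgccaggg
Nr4a2, chr2:57124004-57124253, - strand: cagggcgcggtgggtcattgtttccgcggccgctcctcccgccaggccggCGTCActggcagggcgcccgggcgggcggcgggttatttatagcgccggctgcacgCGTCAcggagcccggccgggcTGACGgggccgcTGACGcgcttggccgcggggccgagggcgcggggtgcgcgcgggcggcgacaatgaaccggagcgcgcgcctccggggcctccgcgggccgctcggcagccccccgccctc

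CRE cores stood in 8 of the 12 windows, which belong to 6 of the 8 genes, and in 17.8% of all 32851 windows. Egr2 has several windows, some of which overlap. The window of Nr4a2 held 4 of them, that of Nr4a1 4, that of Fos 2 and that of Fosb 1. The nearest to the start began 66 bases before it in Fos, 60 in Fosb, 40 in Nr4a1 and 111 in Nr4a2. CArG boxes were found in 4 of the 12 windows, all of Egr2 and so of 1 of the 8 genes, and in 1.47% of all windows. The one printed begins 72 bases before the start. The overlapping Egr2 windows that begin at 67537619, 67537620 and 67537680 hold the same CArG box and the same CRE cores. Egr1 and Ier2 had no window, and bases further upstream were not searched. The full CRE (TGACGTCA, which contains the core), the AP-1 site (TGANTCA) and the EGR site (GCGTGGGCG), each on both strands, were in 0 of the 12 windows and in 1.55%, 6.75% and 0.536% of all windows. Such matches describe letters in these windows and were not measured as binding.

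The 4 AP-1 genes were highest on the array of hairpin 2 with dox. Fosb measured 9.36 with dox and 9.52 without in the hairpin 1 line, 11.05 and 10.03 in the hairpin 2 line, and 9.30 and 9.03 in the scrambled line. The hairpin 2 array with dox stood 1.01 above the next array, which was the same line without dox, and the other 4 lay within 0.49 of each other.

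Jun, the main partner of Fos proteins, measured 9.41 with dox and 9.52 without under hairpin 1, 10.50 and 9.66 under hairpin 2, and 9.50 and 9.35 in the scrambled line. Fos measured 8.17 with dox and 8.26 without under hairpin 1, 9.28 and 8.59 under hairpin 2, and 8.21 and 8.34 in the scrambled line. In both genes 1 array was high, while the other 5 lay within 0.32 of each other for Jun and 0.42 for Fos. Junb, an AP-1 subunit with weaker activating capacity than Jun, measured 8.35 with dox and 8.46 without under hairpin 1, 8.76 and 8.42 under hairpin 2, and 8.41 and 8.28 in the scrambled line, the same array being highest by a smaller margin.

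The Egr genes shared that highest array and had the scrambled array without dox as their lowest. Egr1 measured 10.71 with dox and 10.90 without under hairpin 1, 11.34 and 10.82 under hairpin 2, and 10.65 and 10.39 in the scrambled line. Egr2, best known for hindbrain segmentation and myelination, measured 7.66 with dox and 7.70 without under hairpin 1, 7.95 and 7.60 under hairpin 2, and 7.58 and 7.47 in the scrambled line. For both Egr genes all 4 arrays of the Pcgf6-hairpin lines were above both scrambled arrays, as for 9.69% of all genes. The closest of these arrays were 10.71 and 10.65 for Egr1, and 7.60 and 7.58 for Egr2.

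The nuclear receptor genes followed another order, in which no single array stood high. The scrambled array without dox was lowest, and that of hairpin 2 without dox was next. Nr4a2 (Nurr1, a receptor of dopaminergic neurons) measured 9.62 with dox and 9.44 without under hairpin 1, 9.64 and 9.05 under hairpin 2, and 9.33 and 8.25 in the scrambled line. Nr4a1 (Nur77) measured 11.40 with dox and 11.34 without under hairpin 1, 11.36 and 10.86 under hairpin 2, and 11.17 and 10.54 in the scrambled line. Both genes were higher with dox in every line, by least under hairpin 1 and by most in the scrambled line.

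Ier3 (IEX-1), which acts on cell survival and ERK signalling, measured 8.56 with dox and 8.27 without under hairpin 1, 8.65 and 8.29 under hairpin 2, and 8.19 and 7.66 in the scrambled line. It was higher with dox in every line. Each scrambled array was below all 4 arrays of the Pcgf6-hairpin lines, as for 9.69% of all genes. Ier2, which encodes a nuclear protein, measured 9.09 with dox and 9.20 without under hairpin 1, 9.46 and 9.29 under hairpin 2, and 9.16 and 9.37 in the scrambled line. Its 6 arrays spanned 0.37, the narrowest range of the 10 genes, and Fosb spanned 2.01, the widest.

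**Figure D1:**
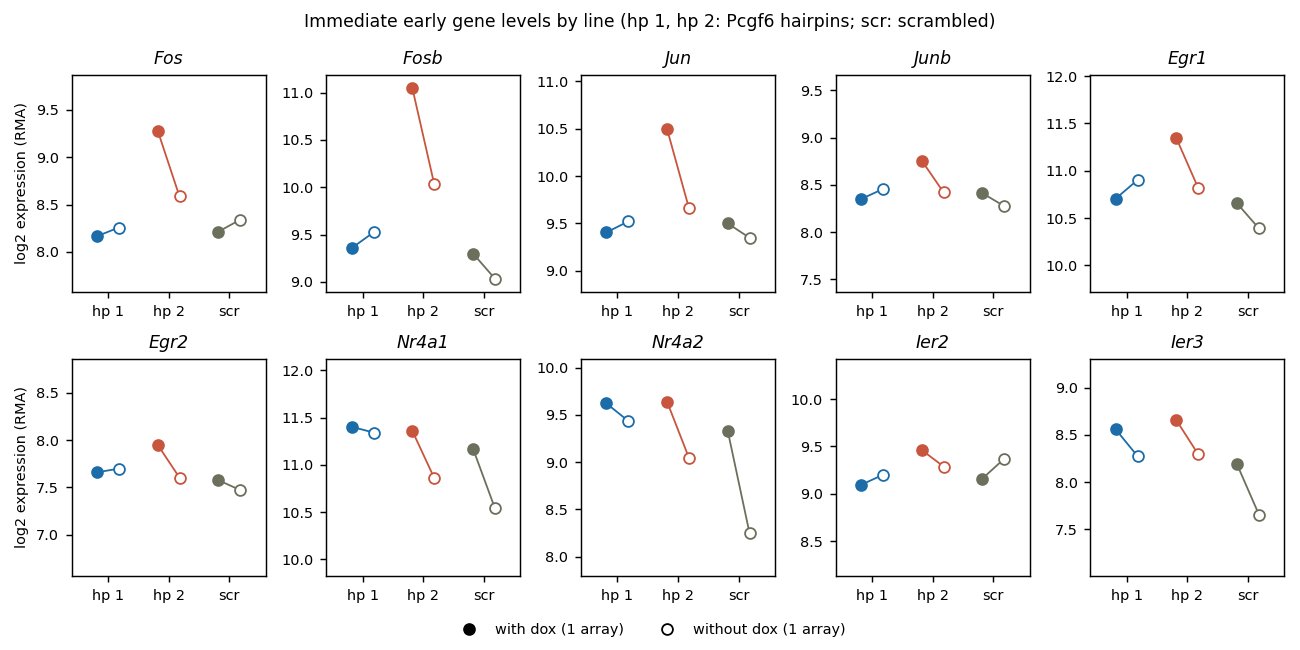
Log2 expression of the 10 immediate early genes (vertical axes, each spanning the same number of log2 units) on the 6 arrays, by line. Filled points are arrays with dox and open points arrays without, 1 array each. Fos, Fosb and Jun have 1 high array (hairpin 2 with dox), and Nr4a2 and Ier3 have a low one (scrambled without dox). Nr4a1 is lowest on that array too, with hairpin 2 without dox next.

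Counted over the genes, the array of hairpin 2 with dox was the highest of 6 for 9 of 10, the exception being Nr4a1, and for 18.3% of all genes. The scrambled array without dox was the lowest for 8 of 10, all but Fos and Ier2, and for 18.8% of all genes. Set against the mean of the other 5 arrays, the median of the 10 genes was 0.48 on the hairpin 2 array with dox and -0.43 on the scrambled array without dox, where the medians of all genes were -0.01 and 0.01. On the remaining 4 arrays the median of the 10 lay between -0.11 and 0.01.

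The first question was how far the genes changed with dox within each line, where each difference is dox minus no dox from 1 array against 1 and carries no test. Under hairpin 1 the differences ran from -0.20 for Egr1 to 0.28 for Ier3, and 3 of 10 were above 0 (Nr4a1, Nr4a2, Ier3), against 50.4% of all genes. Under hairpin 2 all 10 were above 0, against 45.8% of all genes, from 0.17 for Ier2 to 1.01 for Fosb. In the scrambled pair 8 of 10 were above 0, against 46.5%, from -0.21 for Ier2 to 1.08 for Nr4a2.

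Differences of at least 1.5-fold higher were reached by 4 of 10 under hairpin 2, where 2.17% of all genes reached it. These were Fosb (2.02-fold), Jun (1.78-fold), Fos (1.62-fold) and Nr4a2 (1.51-fold). In the scrambled pair 2 of 10 reached it, Nr4a2 (2.12-fold) and Nr4a1 (1.55-fold), against 1.48% of all genes. Under hairpin 1 it was 0 of 10, against 0.627%. No member was at least 1.5-fold lower in any pair, against 0.241% of all genes for hairpin 1, 0.446% for hairpin 2 and 0.211% for the scrambled hairpin.

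Placed among all 19938 genes, the difference of Fosb under hairpin 2 was exceeded by 50 genes, that of Jun by 109 and that of Fos by 249. The difference of Nr4a2 in the scrambled pair was exceeded by 4 genes. Under hairpin 1 the AP-1 genes measured -0.17 (Fosb), -0.12 (Jun), -0.11 (Junb) and -0.09 (Fos). The 2 lines with a Pcgf6 hairpin thus differed in sign for Fos, Fosb, Jun, Junb, Egr1, Egr2 and Ier2, and with 1 pair per hairpin the difference between hairpins was not tested.

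**Figure D2:**
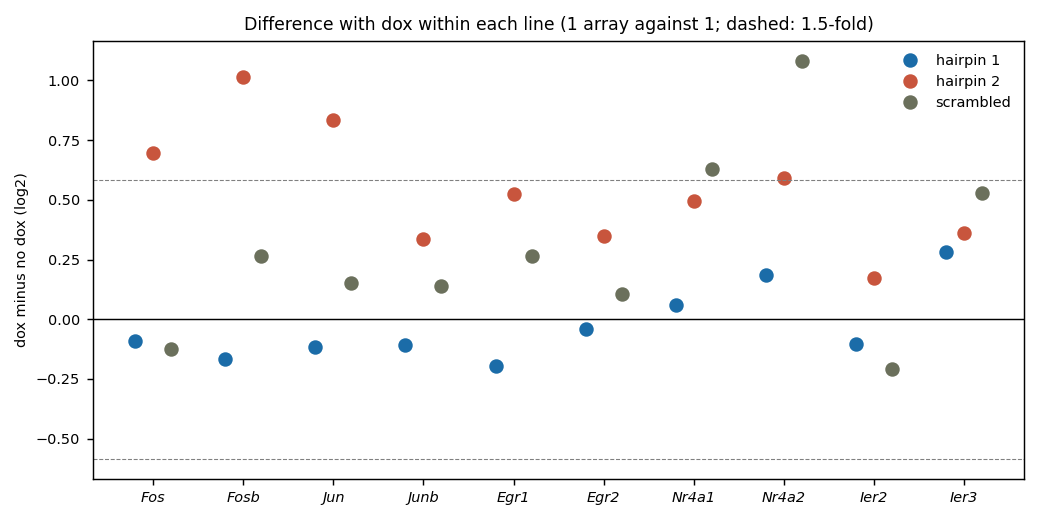
Dox minus no dox on the log2 scale (vertical axis) for each gene in the hairpin 1, hairpin 2 and scrambled lines, each point 1 array against 1. All 10 points of hairpin 2 are above 0, 3 of those of hairpin 1 and 8 of those of scrambled; dashed lines mark 1.5-fold.

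Replicated tests asked whether these differences were larger than the spread between arrays. In the Pcgf6-hairpin lines (n = 2 with dox against 2 without), 0 of 10 passed an adjusted p of 0.05 by limma, against 0.201% of all genes. Unadjusted, 2 of 10 had p under 0.05, against 8.75% of all genes. Fosb averaged 10.20 ± 1.19 with dox and 9.78 ± 0.36 without (SD, n = 2 each), a difference of 0.42 (SE 0.50, 95% interval -0.78 to 1.62, limma adjusted p = 0.856). This fit leaves out the pairing by hairpin, and with the hairpin as a replicate block the SE of Fosb was 0.25.

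Jun averaged 9.95 ± 0.77 with dox and 9.59 ± 0.10 without (SD, n = 2 each), a difference of 0.36 (SE 0.32, limma adjusted p = 0.797). Fos differed by 0.30 (SE 0.33, limma adjusted p = 0.845). The SD between hairpins with dox exceeded the mean difference for all genes but Nr4a1, Nr4a2 and Ier3, and leaving out the hairpin 2 array with dox gave differences of -0.26 for Fos, -0.42 for Fosb and -0.19 for Jun. Without the hairpin 1 array with dox they were 0.86, 1.27 and 0.91, and 0 of 10 passed in either case.

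Ier3 was steadier, at 8.60 ± 0.07 with dox and 8.28 ± 0.01 without (SD, n = 2 each), a difference of 0.32 (SE 0.09, 95% interval 0.11 to 0.53, unadjusted p = 0.00881, limma adjusted p = 0.424). Nr4a2 averaged 9.63 ± 0.01 with dox and 9.24 ± 0.27 without, a difference of 0.39 (SE 0.14, 95% interval 0.06 to 0.72, limma adjusted p = 0.527). These and Nr4a1 were the 3 of 10 whose arrays with dox were both above those without, against 17.9% of all genes. For Junb, Egr1, Egr2, Nr4a1 and Ier2 the differences lay between 0.03 and 0.28, with limma adjusted p between 0.669 and 0.968.

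A second comparison took the difference with dox in the Pcgf6-hairpin lines minus that in the scrambled line (n = 2 pairs against 1). It shares the hairpin arrays with the first comparison. By limma 0 of 10 passed, against 0.0702% of all genes, and unadjusted 1 of 10 had p under 0.05, against 4.55%. Nr4a2 measured -0.69 (SE 0.24, 95% interval -1.26 to -0.13, unadjusted p = 0.0235, limma adjusted p = 0.999), the negative sign standing for a smaller difference with the Pcgf6 hairpins. Fos was at the other end, at 0.43 (SE 0.58, 95% interval -0.97 to 1.82), and all 10 adjusted p were 0.999. The interval of Fosb ran from -1.92 to 2.24, so in this fit differences of several fold either way were within the error. Here too the pairing by hairpin was left out. With the hairpin as a replicate block the SE of Fosb was 0.43 in place of 0.86.

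Dox was then compared with no dox over the 3 lines, with each line as its own block, on arrays that the comparisons above also used. By limma 0 of 10 passed, as did 0.0% of all genes, and unadjusted 3 of 10 had p under 0.05, against 11.6% of all genes. These were Ier3 (0.39, SE 0.08, 95% interval 0.21 to 0.57, unadjusted p = 0.0016), Nr4a2 (0.62, SE 0.16, unadjusted p = 0.00545) and Nr4a1 (0.39, SE 0.11, unadjusted p = 0.0109), with limma adjusted p of 0.345 for each. The same 3 genes were higher with dox in 3 of 3 lines, as were 15.2% of all genes. Ier2 measured -0.05 (SE 0.09), and the remaining 6 lay between 0.12 and 0.37 with limma adjusted p between 0.516 and 0.744.

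The last comparison set the Pcgf6-hairpin lines (n = 4 arrays) against the scrambled line (n = 2 arrays), with dox as a term. These are 2 lines against 1, with a term per line and both arrays of a line used as replicates. The errors and p-values below thus rest on how far the difference with dox varied between lines. They leave out the spread between scrambled lines and that between the 2 Pcgf6-hairpin lines. In a fit with 1 mean for the hairpin lines and 1 for the scrambled line, the SE of Fosb was 0.42 in place of 0.21. By limma 0 of 10 passed, against 0.12% of all genes, and unadjusted 5 of 10 had p under 0.05, against 12.0%. Fosb averaged 9.99 ± 0.76 in the hairpin lines and 9.17 ± 0.19 in the scrambled line (SD, n = 4 and 2), a difference of 0.82 (SE 0.21, 95% interval 0.33 to 1.32, limma adjusted p = 0.183). Ier3 averaged 8.44 ± 0.19 in the hairpin lines and 7.92 ± 0.37 in the scrambled line (SD, n = 4 and 2), a difference of 0.52 (SE 0.08, limma adjusted p = 0.0808).

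Nr4a2 differed between the lines by 0.64 (SE 0.16, limma adjusted p = 0.184), Egr1 by 0.42 (SE 0.14, limma adjusted p = 0.299) and Nr4a1 by 0.38 (SE 0.12, limma adjusted p = 0.271). Without the hairpin 1 array with dox 5 of 10 passed, namely Fosb, Egr1, Nr4a1, Nr4a2 and Ier3 (limma adjusted p between 0.027 and 0.0442), and the calls over all genes numbered 437 in place of 24. Without the hairpin 2 array lacking dox Fosb passed (limma adjusted p = 0.0481), and the calls over all genes numbered 45 in place of 24. All arrays of the hairpin lines were above both scrambled arrays for Fosb, Egr1, Egr2 and Ier3, 4 of 10, against 9.69% of all genes, and 0 of 10 were below both, against 8.38%. Fos, Jun, Junb and Egr2 differed by 0.15 to 0.35, and Ier2 by 0.00 (95% interval -0.23 to 0.23).

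**Figure D3:**
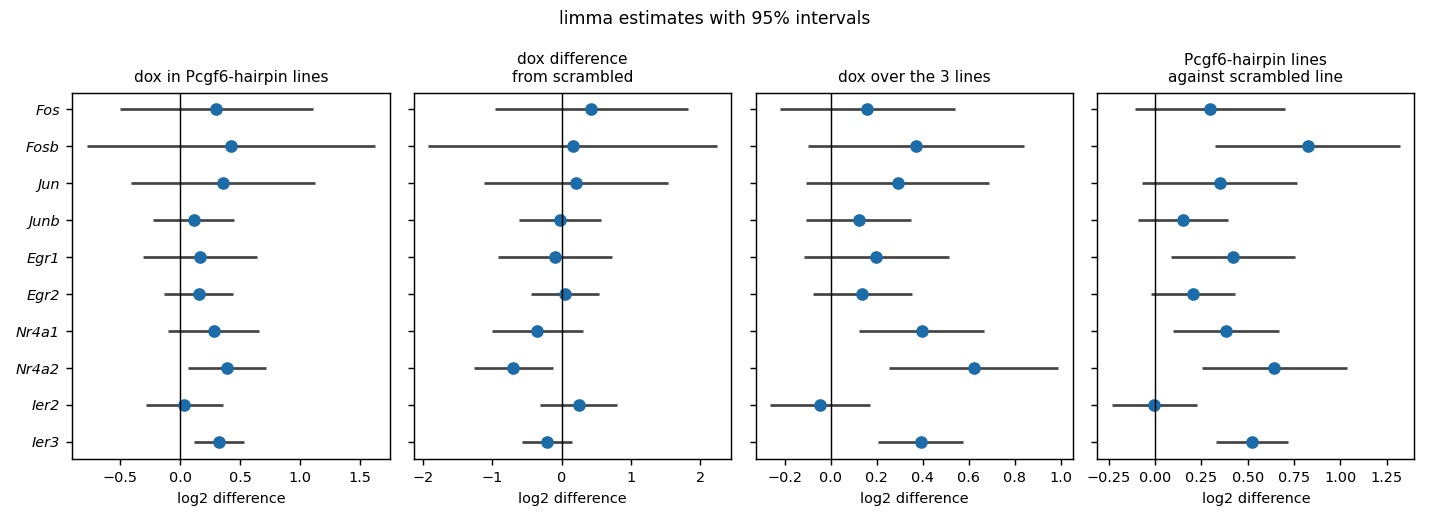
Differences on the log2 scale (horizontal axes, which differ in range) from limma with 95% intervals, for each gene in the 4 comparisons. The intervals of Fos, Fosb and Jun are the widest for dox in the Pcgf6-hairpin lines, and those of Nr4a1, Nr4a2 and Ier3 lie above 0 over the 3 lines; 0 of 10 genes passed after adjustment in any of the 4.

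Markers of the feeder fibroblasts moved with several of these differences. Of 19 feeder genes (of 20 listed), 8 were higher with dox for hairpin 1, 18 for hairpin 2 and 18 for the scrambled hairpin. The shares of all genes were 50.4%, 45.8% and 46.5%. The feeder genes had median differences of -0.01, 0.40 and 0.57 in that order, and 0 passed in any comparison of dox. Unadjusted, 12 of 19 had p under 0.05 by limma over the 3 lines, against 11.6% of all genes. For dox in the Pcgf6-hairpin lines it was 3 of 19, against 8.75%, and for the difference from scrambled 3 of 19, against 4.55%. The feeder mean was highest on the hairpin 2 array with dox and lowest on the scrambled array without dox, the same arrays that were highest and lowest for most of the 10 genes. The feeder genes were also higher in the hairpin lines than in the scrambled line, by a median of 0.59. Unadjusted, 17 of 19 had p under 0.05 by limma between the lines, against 12.0% of all genes. Lum, a proteoglycan gene, passed there (limma adjusted p = 0.0357), and no gene did without the dox term. Lum is among the feeder markers that did not lie above the median gene on all 6 arrays.

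Across the 6 arrays, which are 3 pairs sharing a line, the level of Ier3 correlated with the feeder mean at 0.97, that of Nr4a2 at 0.92, Egr1 at 0.90, Egr2 at 0.88 and Nr4a1 at 0.85. Junb (0.78), Fosb (0.75), Jun (0.67) and Fos (0.51) were lower, and Ier2 stood at -0.01. With the feeder mean as a covariate, the difference over the 3 lines was 0.27 for Ier3 (SE 0.14), 0.14 for Nr4a2 (SE 0.16) and 0.05 for Nr4a1 (SE 0.13). In that fit the difference between the hairpin lines and the scrambled line was -0.012 for Fosb (SE 0.46), -0.28 for Nr4a2 (SE 0.26) and 0.28 for Ier3 (SE 0.23). The fit has 1 residual degree of freedom, and what part feeder cells have in the measured levels was not tested.

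**Figure D4:**
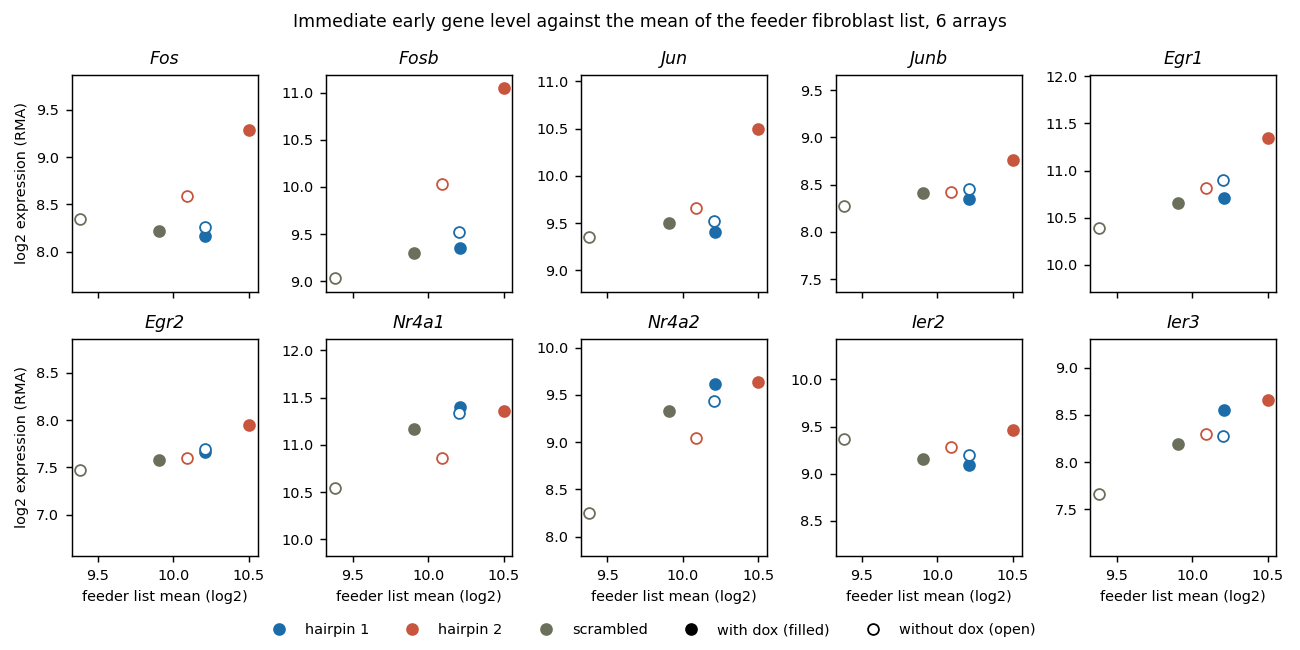
Level of each gene (vertical axes, log2) against the mean of 19 feeder fibroblast genes on the same array (horizontal axes, log2), 1 point per array. Ier3 and Nr4a2 run along with the feeder mean (r of 0.97 and 0.92), Fos, Fosb and Jun have 1 array apart at the right, and Ier2 shows no slope (r of -0.01).

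The genes varied together in 2 overlapping sets across the 6 arrays. Fosb correlated at 0.97 with Jun, 0.95 with Fos, 0.94 with Junb and 0.93 with Egr1, and at 0.49 with Nr4a2. Nr4a2 correlated at 0.97 with Nr4a1 and 0.94 with Ier3, and at 0.23 with Fos. Egr1 and Egr2 correlated at 0.97 with each other and at 0.64 or more with every member of both sets. Ier2 correlated at 0.83 with Fos and at -0.33 with Nr4a2. With 6 arrays and 1 array that stood apart for the AP-1 genes, these values describe the arrays and carry no test.

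Among 590 genes that varied at least as much as the median of the 10, the 5 whose pattern was most like their mean over the 6 arrays were Pros1 (r = 0.99), Gem (r = 0.99), C1s1 (r = 0.99), Serpinb2 (r = 0.98) and Ifi207 (r = 0.98). Pros1 encodes protein S of the anticoagulant system, Gem a Ras-related GTPase, C1s1 a complement protease, Serpinb2 a plasminogen activator inhibitor and Ifi207 an interferon-inducible protein. Gem measured 7.68 with dox and 7.67 without under hairpin 1, 8.72 and 7.93 under hairpin 2, and 7.56 and 7.09 in the scrambled line. Serpinb2 measured 6.13 with dox and 6.19 without under hairpin 1, 6.90 and 6.31 under hairpin 2, and 5.91 and 5.57 in the scrambled line. Both were highest under hairpin 2 with dox, which follows from their choice, since the mean of the 10 genes is highest there.

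Of 47 further immediate early genes, 0 passed in any of the 3 comparisons of dox, and 1 passed between the lines, the chemokine gene Ccl2. Unadjusted, 16 of 47 had p under 0.05 between the lines, against 12.0% of all genes. For dox in the Pcgf6-hairpin lines it was 1 of 47, against 8.75%. For the difference from scrambled it was 2 of 47, against 4.55%, and over the 3 lines 7 of 47, against 11.6%. The median difference of the 47 with dox was -0.04 for hairpin 1, 0.18 for hairpin 2 and 0.11 for the scrambled hairpin. The medians over all genes were 0.00, -0.02 and -0.01. At least 1.5-fold higher were 0 of 47 for hairpin 1, 5 of 47 for hairpin 2 and 1 of 47 for the scrambled hairpin. The shares of all genes were 0.627%, 2.17% and 1.48% in that order.

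Ccl2 measured 9.85 with dox and 9.89 without under hairpin 1, 10.96 and 10.77 under hairpin 2, and 9.30 and 8.58 in the scrambled line. All 4 hairpin arrays were above both scrambled arrays, as for 9.69% of all genes (limma adjusted p = 0.0365 for Ccl2 between lines). With the feeder mean as a covariate, or without the dox term, no gene passed between the lines, so the call of Ccl2 was lost in both. The highest mean differences with dox over the 3 lines were those of Ptgs2 (cyclooxygenase-2, 0.38), the AP-1 gene Fosl2 (0.36) and Atf3, a stress-induced transcription factor gene (0.35). Atf3 measured 10.02 with dox and 9.23 without under hairpin 2, and 9.35 and 9.34 under hairpin 1. The lowest were Npas4 (-0.27), an activity-dependent transcription factor gene of neurons, Klf2 (-0.13) and Egr4 (-0.12).

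Of 22 measured regulators of immediate early genes (of 26 listed), 0 passed in any of the 4 comparisons, and their median difference with dox was 0.03 for hairpin 1, 0.08 for hairpin 2 and 0.04 for the scrambled hairpin. Elk3, an ETS factor that binds with SRF, had the highest mean difference over the lines at 0.43, followed by Maf at 0.32, and the lowest were Mapk8 (-0.11) and Creb1 (-0.10). Of 14 feedback genes of ERK signalling, 0 passed in any comparison, with medians of -0.03, 0.15 and 0.12 in that order. The phosphatase gene Dusp1 (0.33) and Dusp5 (0.30), which is selective for ERK, were highest, and Spry4 (-0.06) and Spred2 (-0.01) lowest.

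Of 12 measured heat shock and stress genes (of 14 listed), 0 passed in any comparison, and the medians were 0.02, 0.19 and 0.05 in the same order. Hspa1a, the inducible Hsp70 gene, measured 10.83 with dox and 9.34 without under hairpin 2, a difference of 1.49, against 0.07 under hairpin 1 and 0.20 in the scrambled pair. Its highest array, hairpin 2 with dox, was also the highest of the 4 AP-1 genes, and its lowest was hairpin 2 without dox. Bag3, a partner of Hsp70, differed by 0.38 on average, and Hmox1 (-0.05) and Hspe1 (-0.06) were lowest. What part cell handling has in the levels of the 10 genes was not tested.

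Of the feeder genes, Prrx1 (0.54) and Lox (0.46) had the highest mean differences with dox and Fap (-0.08) and Col3a1 (0.16) the lowest. Of 12 pluripotency genes 0 passed in any comparison, and Klf4 (0.15) and Sall4 (0.00) were highest and Dppa4 (-0.41) and Zfp42 (-0.15) lowest. Their median was 0.00 for hairpin 1, -0.12 for hairpin 2 and -0.08 for the scrambled hairpin.

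**Figure D5:**
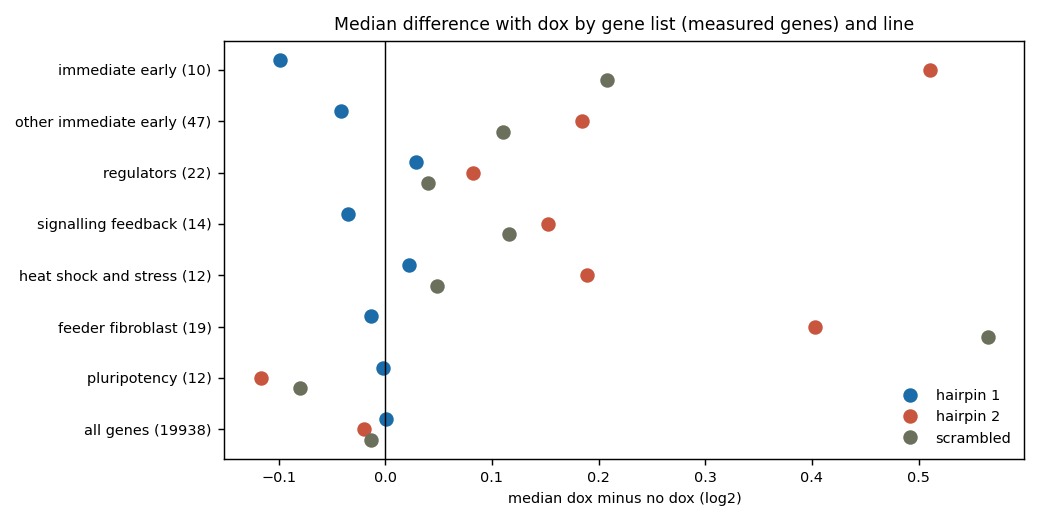
Median of dox minus no dox on the log2 scale (horizontal axis) for each gene list and for all genes, by line. The 10 immediate early genes have medians of -0.10 for hairpin 1, 0.51 for hairpin 2 and 0.21 for the scrambled hairpin, and the feeder list has -0.01, 0.40 and 0.57.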

How the data were processed

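The authors deposited log2 values, produced by RMA in Affymetrix Power Tools according to the submitters' processing notes, with no version or option given in the sources used here. RMA scales the arrays to a common distribution, which removes changes shared by most genes. The platform annotation gives a single symbol to 21789 of 35556 probe sets, which gave 19938 genes by the brightest probe set, all tested without a filter. limma 3.58.1 in R 4.3.3 was fitted over all 6 arrays: 1 mean per group for dox in the hairpin lines and its difference from scrambled, and line plus dox for the 3-line and between-line comparisons, each with 2 residual degrees of freedom. Tests were two-sided, with Benjamini-Hochberg adjustment over all genes. The same fits were run on simulated arrays with independent errors and no difference between the 2 hairpin lines. That run therefore does not show how the tests behave where these lines differ. Scrambled arrays were single per dox state and were taken to vary like the others. Separate cultures are not stated in the labels. The p-values therefore reflect the spread among these arrays alone, and the number of arrays limits precision. With 1 mean per group, that spread is between arrays of hairpin 1 and hairpin 2. With a term per line, it is how far the difference with dox varied between lines. Technical spread may be part of both and was not separated. Deviations of arrays of the same hairpin correlated at 0.181, and pairing comes from the shared line. Members and lists were chosen with earlier results of these data known, and named genes follow a rule: all members, called genes of the early response list, and the highest and lowest of each list. Alternatives changed the normalization, filter, probe sets, variance prior, block, feeder covariate and arrays used. Genes without a probe set of their own were left out of the lists.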

Additional observations from a re-analysis of the deposited data

How the results depend on the processing

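Calls among the 10 genes stayed at 0 under every alternative run for the 3 comparisons of dox, including the hairpin as a replicate block (0 of 10 in both) and no replicate block over the 3 lines (0 of 10). Between the lines the count ran from 0 to 5 with 1 array left out. Over all genes, the calls for dox in the Pcgf6-hairpin lines (40) became 62 with an intensity trend, 7 without the dimmest 50% of genes, 18 with the feeder covariate and 14 to 40 with 1 array left out. The difference from scrambled (14) gave 22 with median centring, 9 and 4 without the dimmest 25% and 50%, 0 with the feeder covariate, 23 with the replicate block and 0 to 4 with 1 array left out; it could not be fitted without either scrambled array. The 3 lines (0) gave 0 to 54 with 1 array left out. With a term per line, leaving out 1 array takes its whole line out of the estimate of dox. The 54 came with a scrambled array left out, so from the hairpin lines alone. The lines (24) gave 41 with quantile normalization, 4 without the dimmest 50%, 113 with an intensity trend, 0 with the feeder covariate, 0 without the dox term and 0 to 437 with 1 array left out.

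The sign of single uncalled genes turned with the feeder covariate, with single arrays left out and once with quantile normalization, and the cause was not tested. For dox in the hairpin lines the feeder covariate gave -0.25 for Egr1, -0.050 for Egr2, -0.30 for Fos, -0.49 for Fosb, -0.17 for Ier2, -0.28 for Jun and -0.15 for Junb. For the difference from scrambled it gave 0.53 for Egr1 and 0.37 for Junb. Over the 3 lines it gave -0.15 for Egr1, -0.0054 for Egr2, -0.062 for Fosb, -0.023 for Jun and -0.076 for Junb. Between the lines it gave -0.26 for Egr1, -0.073 for Egr2, -0.012 for Fosb, -0.26 for Jun, -0.23 for Junb, -0.27 for Nr4a1 and -0.28 for Nr4a2. Quantile normalization gave -0.000275 for Ier2 in the hairpin lines. With 1 array left out, dox in the hairpin lines ran from -0.15 to 0.48 for Egr1, -0.26 to 0.86 for Fos, -0.42 to 1.27 for Fosb, -0.15 to 0.22 for Ier2, -0.19 to 0.91 for Jun and -0.089 to 0.32 for Junb. The difference from scrambled ran from -0.42 to 0.22 for Egr1, -0.096 to 0.20 for Egr2, -0.13 to 0.99 for Fos, -0.69 to 1.00 for Fosb, -0.34 to 0.75 for Jun and -0.23 to 0.18 for Junb. Over the 3 lines Fos ran from -0.11 to 0.30 and Ier2 from -0.16 to 0.034, and between the lines Ier2 from -0.13 to 0.12. Nr4a1, Nr4a2 and Ier3 kept their sign for dox in all of these alternatives. With 1 or 2 residual degrees of freedom, the arrays limit what can be told apart.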
